A study of Mus musculus with 6 samples.

Results

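Wnt signaling genes were followed in the wasting hindlimb muscle of mice that carried C26 tumors. The set held every probe set of the array whose gene symbol names a Wnt ligand, a Frizzled receptor, a secreted frizzled-related protein, a Dickkopf protein or an R-spondin, together with Frzb, Wif1, Lrp5, Lrp6, Lgr4, Lgr5, Axin1, Axin2, Ctnnb1 and Tcf7l2. It came to 51 genes of 21212 probe sets, 1 probe set per gene, and the genes were taken by name. Of 10 antagonist and Dickkopf genes 4 fell, as did 1 of 19 ligand genes and 1 of 10 Frizzled genes. Of all probe sets 4.95% fell and 5.94% rose by the same thresholds. Frzb was 6.50-fold lower in C26 muscle than in control muscle, Wnt5a at least 3.18-fold, Sfrp2 2.05-fold, Wif1 1.93-fold, Dkk3 1.80-fold and the receptor gene Fzd9 1.70-fold. One receptor gene, Fzd4, was 1.71-fold higher.

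The C26 group held male CDF1 mice that received C26 adenocarcinoma cells, a mouse tumor line, in a mixture of PBS and matrigel under the skin of both flanks. The control group held male CDF1 mice that received the same mixture without cells. All mice were 8 weeks old when they were bought, and gastrocnemius and plantaris muscles were taken 25 days after inoculation from 4 C26 mice and 3 control mice. Each group gave 3 RNA pools of 2 to 3 muscles, numbered 1, 3 and 4 for C26 and 1, 2 and 3 for control, with 1 whole-transcript array per pool. The sources used here do not say which muscles went into which pool, so pools of a group may share a mouse and p-values measure only the spread between these pools.

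Wnt proteins are secreted, lipid-modified ligands that bind Frizzled receptors on neighboring cells. With the co-receptors Lrp5 or Lrp6 they keep a complex of Axin, Apc and glycogen synthase kinase from marking beta-catenin for destruction, and beta-catenin then acts in the nucleus with factors such as Tcf7l2. R-spondins strengthen the signal through Lgr receptors. Frizzled-related proteins and Wif1 bind the ligands themselves, whereas Dickkopf proteins such as Dkk1 block the co-receptors. In skeletal muscle, Wnt signaling is known for its part in the formation of muscle in the embryo, in satellite cells during regeneration and at the neuromuscular junction.

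Values are log2 RMA expression values. Arrays agreed closely within groups (Pearson correlation over all probe sets 0.994 to 0.996) and less between groups (0.976 to 0.981). Of 10 markers of muscle fibers, 10 lay above the array background. Of 6 carcinoma markers, 4 lay above it as well (Cdh1, Krt8, Krt18 and Krt19). The epithelial adhesion gene Epcam and the keratin gene Krt20 did not. The background was set at 3.82 (log2), the 95th percentile of 1261 probe sets for olfactory and vomeronasal receptors, most of which serve as blanks in muscle. Above it, in at least 1 group, lay 45 of the 51 Wnt genes, or 88.2%, against 70.2% of all probe sets. The 6 below it in both groups were the ligand genes Wnt1, Wnt7a and Wnt8b, the receptor gene Fzd3, the R-spondin gene Rspo2 and Lgr5, so that no change could be read for them. The arrays give 1 value per gene for a mixture of cell types, in which fewer cells of a type and less RNA per cell cannot be told apart.

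Genes are written as rising or falling when the adjusted p from limma, taken over all 21212 probe sets, was 0.05 or less and the change was at least 1.5-fold. By this measure 6 of the 51 Wnt genes fell and 1 rose. Over all probe sets, 4.95% fell and 5.94% rose, and among the probe sets above background, to which all 7 of these genes belong, 6.86% fell and 8.3% rose. The median log2 fold change over the 51 genes was −0.17, beside −0.05 over all probe sets, and it was −0.17, −0.16 and −0.21 in C26 replicates 1, 3 and 4, each set against the control mean. By the adjusted p alone, with no minimum change, 18 of the 51 genes were lower and 2 higher, where 15.8% of all probe sets were lower and 14.3% higher. Each C26 pool lay below each control pool for 20 of the 51 genes and above for 6, where 24.6% of all probe sets lay wholly below and 19.3% wholly above.

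**Figure D1:**
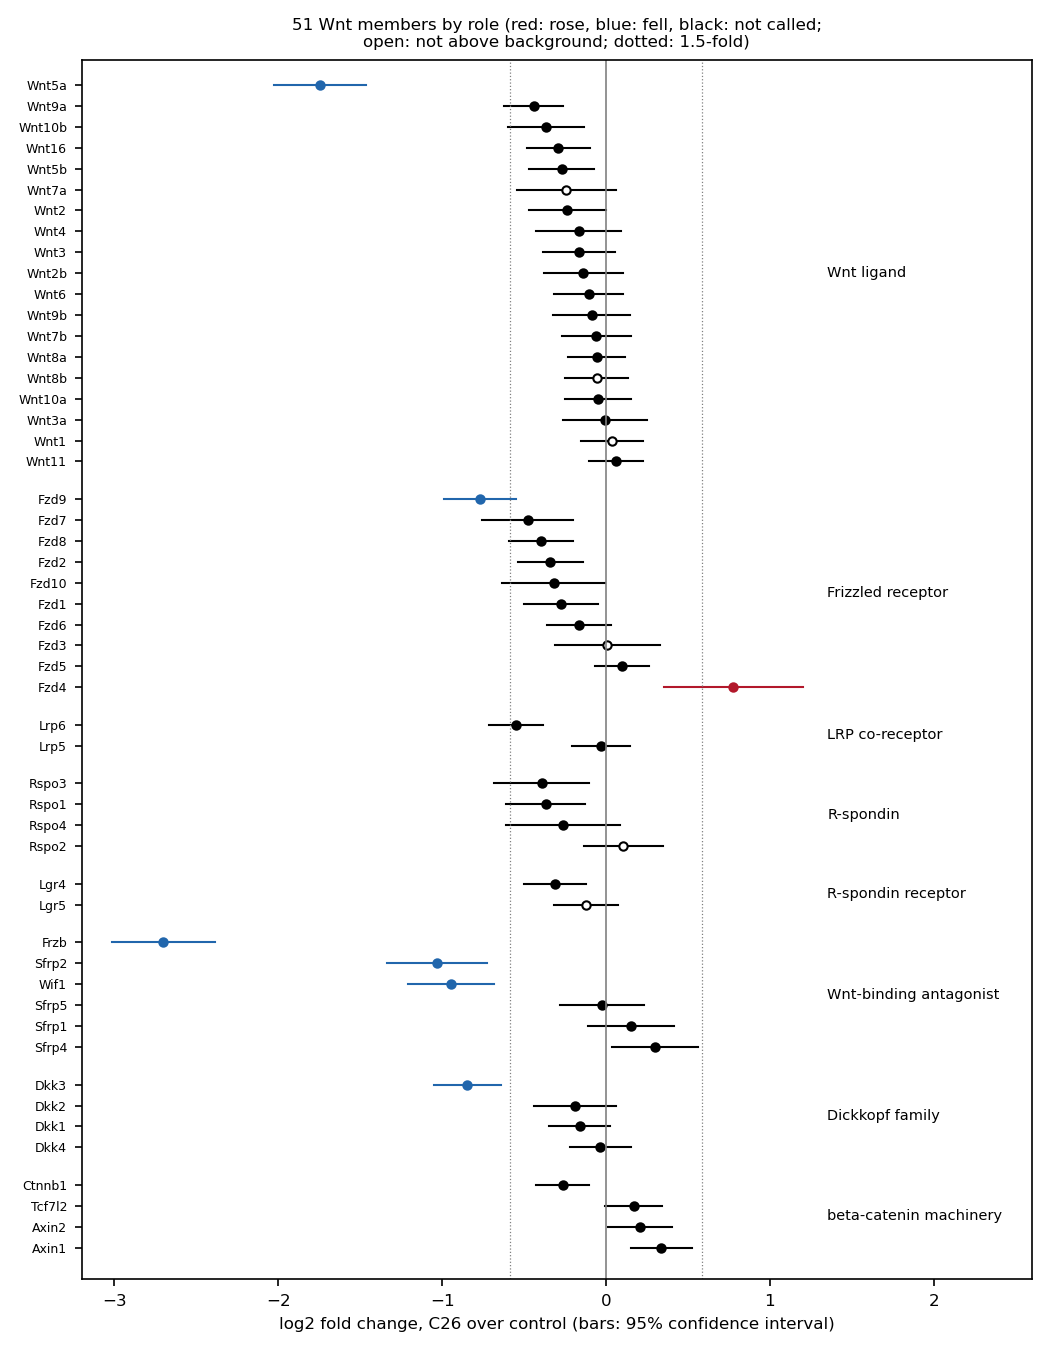
Log2 fold change of C26 over control muscle (horizontal axis) with its 95% confidence interval from limma for the 51 Wnt genes, grouped by role down the page, with 3 pools a group. Frzb (−2.70) and Wnt5a (−1.75) lie farthest to the left and Fzd4 (0.78) farthest to the right, and open points mark the 6 genes not above background.

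Of the 6 antagonist genes that bind Wnt ligands, 3 fell and 3 did not pass. Frzb, a secreted frizzled-related protein first known from cartilage, had values of 4.87, 4.41 and 4.63 in the C26 pools, against 7.56, 7.17 and 7.28 in the control pools. The highest C26 pool lay more than 2 log2 units below the lowest control pool, and the log2 fold change was −2.70 (SE 0.14, adjusted p = 6.03e-06 from limma). Sfrp2, a frizzled-related protein made by fibroblast-like cells, had values of 4.92, 4.89 and 4.96 in the C26 pools, against 5.90, 5.69 and 6.26 in the control pools. The C26 pools lay close together and below every control pool, and the log2 fold change was −1.03 (SE 0.13, adjusted p = 0.000575). Wif1, which binds Wnt ligands outside the cell through a domain of its own, had values of 5.38, 5.33 and 5.21 in the C26 pools, against 6.02, 6.29 and 6.45 in the control pools. Its groups did not overlap either (log2 fold change −0.95, SE 0.11, adjusted p = 0.000411). When variances were allowed to differ between groups, Sfrp2 (adjusted p = 0.101) and Wif1 (adjusted p = 0.0622) no longer passed.

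The other 3 ligand-binding antagonists did not follow. Sfrp4, a further frizzled-related protein, had values of 6.19, 6.24 and 6.34 in the C26 pools, against 5.71, 6.02 and 6.14 in the control pools. All 3 C26 pools lay above the control pools, but the difference of 0.30 (95% confidence interval 0.04 to 0.56) did not pass (adjusted p = 0.0868). Sfrp1 averaged 5.15 ± 0.13 in C26 muscle and 5.00 ± 0.20 in control muscle (SD, 3 pools each), with an interval for the log2 fold change of −0.11 to 0.41. Sfrp5 averaged 5.52 ± 0.06 in C26 muscle and 5.54 ± 0.22 in control muscle, with an interval of −0.28 to 0.23. For both genes a change as large as that of Sfrp2 or Wif1 lies outside the interval.

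Among the 4 Dickkopf genes, only Dkk3 fell. Dkk3 is the divergent member of its family and is not established as a blocker of Lrp5 and Lrp6. It had values of 5.66, 5.55 and 5.68 in the C26 pools, against 6.49, 6.60 and 6.33 in the control pools. The groups stood apart by more than 0.6, and the log2 fold change was −0.85 (SE 0.09, adjusted p = 0.000213). Dkk2 averaged 5.39 ± 0.05 in C26 muscle and 5.58 ± 0.21 in control muscle and did not pass (adjusted p = 0.246). Dkk1, the best known inhibitor of the co-receptors, and Dkk4 were close to the background in both groups. Dkk1 averaged 3.76 in C26 muscle and 3.92 in control muscle, and Dkk4 averaged 3.87 in C26 muscle and 3.91 in control muscle.

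The promoters of the 3 ligand-binding antagonists that fell were looked at for the letters that TCF and LEF factors, the partners of beta-catenin, are known to bind. Windows of 250 bases before to 50 after the annotated start came from RefSeq (GRCm38.p6) and were found for 33 of the 51 genes (38 windows), among them 5 of the 7 that changed. CTTTGAT or CTTTGAA, sought on both strands, was present in 3 of the 38 windows (7.89%) and in 8.65% of 32851 windows of all genes. The 3 were a window of Dkk1, a window of Wnt11 and a window of Wnt5b. Wnt11 and Wnt5b also had windows at other starts without a match. None of the 5 windows of changed genes (Frzb, Sfrp2, Wif1, Fzd9 and Fzd4) held either, which says only that these letters are not in these windows. The 250 bases before the start are shown for the antagonists that fell most. As an example of a window with a match, the matching window of Wnt5b is shown, chosen after its values were seen. Capitals mark the match, and all 4 read 5′ to 3′ on the strand of the gene.
Frzb, chr2:80447397-80447646, minus strand: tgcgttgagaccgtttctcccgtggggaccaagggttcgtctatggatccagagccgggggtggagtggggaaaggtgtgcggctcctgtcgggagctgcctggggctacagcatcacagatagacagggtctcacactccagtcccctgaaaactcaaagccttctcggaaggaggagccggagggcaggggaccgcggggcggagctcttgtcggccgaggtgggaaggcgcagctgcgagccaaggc
Sfrp2, chr3:83766071-83766320, plus strand: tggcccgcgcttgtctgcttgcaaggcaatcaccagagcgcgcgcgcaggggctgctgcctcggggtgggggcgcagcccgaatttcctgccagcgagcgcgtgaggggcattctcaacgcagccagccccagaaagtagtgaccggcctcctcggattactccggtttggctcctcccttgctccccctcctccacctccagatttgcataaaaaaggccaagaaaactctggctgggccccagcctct
Wif1, chr10:121033754-121034003, plus strand: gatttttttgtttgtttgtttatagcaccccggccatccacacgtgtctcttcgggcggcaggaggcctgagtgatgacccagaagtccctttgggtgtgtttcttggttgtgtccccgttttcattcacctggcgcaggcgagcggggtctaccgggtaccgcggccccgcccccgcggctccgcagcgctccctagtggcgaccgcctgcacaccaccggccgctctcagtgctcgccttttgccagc
Wnt5b, chr6:119449387-119449636, minus strand: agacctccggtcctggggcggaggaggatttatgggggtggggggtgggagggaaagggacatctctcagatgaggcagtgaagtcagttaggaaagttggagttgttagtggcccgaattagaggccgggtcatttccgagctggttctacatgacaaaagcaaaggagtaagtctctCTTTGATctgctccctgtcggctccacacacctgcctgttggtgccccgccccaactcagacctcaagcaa

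Of the 19 Wnt ligand genes, Wnt5a fell and 18 did not pass. Wnt5a, known mostly for signaling that does not pass through beta-catenin, had values of 4.03, 3.76 and 3.65 in the C26 pools, against 5.66, 5.36 and 5.65 in the control pools. In 2 of the 3 C26 pools the gene lay under the background, so that the difference is a lower bound. With those pools set to the background the control level was at least 1.67 log2 units higher, and limma gave −1.75 (SE 0.12, adjusted p = 2.55e-05). Wnt9a had values of 5.72, 5.72 and 5.80 in the C26 pools, against 6.15, 6.29 and 6.12 in the control pools. These groups did not overlap, but the log2 fold change of −0.44 (SE 0.08, adjusted p = 0.00323) was short of 1.5-fold.

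Smaller differences of the same sign were found in Wnt10b, a ligand known to promote bone formation and to hold back fat cell formation (log2 fold change −0.36), Wnt16 (−0.29) and Wnt5b (−0.27). Their adjusted p-values lay between 0.0256 and 0.0462, and each C26 pool was below each control pool. Wnt4, known in muscle as a ligand active in development, averaged 6.16 ± 0.15 in C26 muscle and 6.33 ± 0.18 in control muscle (adjusted p = 0.318). Wnt11, also known for signaling outside the beta-catenin branch, averaged 5.40 ± 0.04 in C26 muscle and 5.34 ± 0.05 in control muscle, with an interval for the log2 fold change of −0.11 to 0.23. Wnt2, Wnt2b, Wnt3, Wnt3a, Wnt6, Wnt7b, Wnt8a, Wnt9b and Wnt10a had log2 fold changes between −0.24 and −0.01, and none of them passed. Wnt3 had 1 C26 pool under the background.

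**Figure D2:**
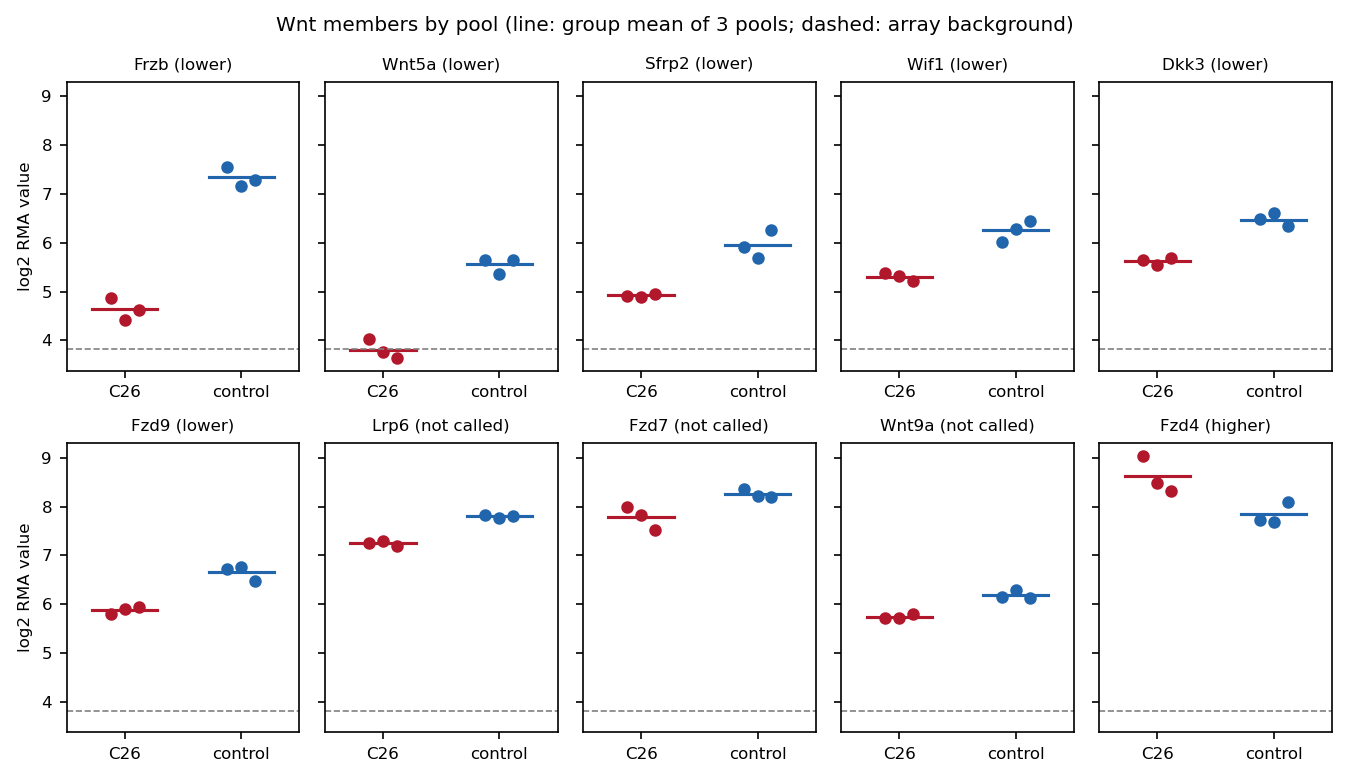
Log2 RMA value (vertical axis) in each C26 pool (red, left) and control pool (blue, right) for the 7 Wnt genes that fell or rose and for Lrp6, Fzd7 and Wnt9a, which did not reach 1.5-fold. Lines are means of 3 pools and the dashed line is the array background of 3.82, which the C26 pools of Wnt5a straddle.

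The Frizzled receptors moved both ways. Fzd9 fell, with values of 5.80, 5.91 and 5.94 in the C26 pools, against 6.71, 6.77 and 6.48 in the control pools. The lowest control pool was more than 0.5 above the highest C26 pool, and the log2 fold change was −0.77 (SE 0.10, adjusted p = 0.000496). Fzd4, which binds Norrin as well as Wnt proteins and is known for its role in the growth of retinal vessels, rose. Its values were 9.03, 8.49 and 8.33 in the C26 pools, against 7.72, 7.69 and 8.10 in the control pools. The groups did not overlap, but C26 replicate 1 was highest by more than 0.5, and control replicate 3 came within 0.3 of the lowest C26 pool. The log2 fold change was 0.78 (SE 0.19, adjusted p = 0.0129). Without C26 replicate 1 it was 0.57, below 1.5-fold, and by the t-test of the study's methods its adjusted p was 0.112. Ndp, which encodes Norrin, lay under the background in both groups, at 2.76 in C26 muscle and 2.67 in control muscle.

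Fzd7, the receptor through which Wnt7a is known to act on mouse satellite cells, had values of 7.99, 7.83 and 7.52 in the C26 pools, against 8.35, 8.22 and 8.21 in the control pools. All C26 pools were below the control pools, and the log2 fold change was −0.48 (SE 0.12, adjusted p = 0.0167), less than 1.5-fold. Its adjusted p was 0.181 with unequal variances, 0.0988 by the t-test of the study's methods, 0.0772 with a replicate block and 0.0547 without control replicate 1. The replicate block rests on the same-numbered pools only. Fzd8 (−0.39, adjusted p = 0.00813) and Fzd2 (−0.34, adjusted p = 0.0174) were also lower by less than 1.5-fold. Fzd10, Fzd1 and Fzd6 had log2 fold changes of −0.32, −0.27 and −0.16 and did not pass, although the pools of Fzd1 and Fzd6 did not overlap. Fzd5 averaged 5.18 ± 0.02 in C26 muscle and 5.08 ± 0.05 in control muscle, a difference of 0.10 that did not pass (adjusted p = 0.357).

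The co-receptors differed from each other. Lrp6 had values of 7.26, 7.30 and 7.19 in the C26 pools, against 7.83, 7.77 and 7.80 in the control pools. The pools of each group lay close together and the groups were well apart, and the log2 fold change was −0.55 (SE 0.07, adjusted p = 0.000667), a 1.46-fold lower level that is just short of 1.5-fold. With quantile normalization or cyclic loess the fold change was −0.62 or −0.59 and passed. Lrp5 had values of 7.22, 7.09 and 7.14 in the C26 pools, against 7.21, 7.22 and 7.11 in the control pools. These overlapped fully, and the interval of −0.20 to 0.15 leaves out a change of the size seen in Lrp6. Lgr4, a receptor for R-spondins, averaged 6.74 ± 0.12 in C26 muscle and 7.05 ± 0.03 in control muscle (log2 fold change −0.31, adjusted p = 0.0221). Of its ligands, Rspo3 (−0.39, adjusted p = 0.0464) and Rspo1 (−0.37, adjusted p = 0.0297) were lower by less than 1.5-fold, and Rspo4 did not pass (−0.26).

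None of the 4 genes that act inside the cell reached 1.5-fold. Ctnnb1, the beta-catenin gene, had values of 8.65, 8.73 and 8.67 in the C26 pools, against 8.92, 8.96 and 8.95 in the control pools. The difference was small but larger than the range of either group (log2 fold change −0.26, SE 0.07, adjusted p = 0.0218). Axin1, a scaffold of the complex that marks beta-catenin, was higher, with values of 6.34, 6.45 and 6.35 in the C26 pools and 5.98, 6.16 and 5.98 in the control pools. Its log2 fold change of 0.34 (SE 0.08, adjusted p = 0.0144) did not reach 1.5-fold. Axin2, which is both a scaffold and a widely used target gene of the pathway, had a log2 fold change of 0.21 (adjusted p = 0.105), and Tcf7l2 averaged 6.91 ± 0.06 in C26 muscle and 6.75 ± 0.06 in control muscle (adjusted p = 0.133). The C26 pools of both lay above the control pools.

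**Figure D3:**
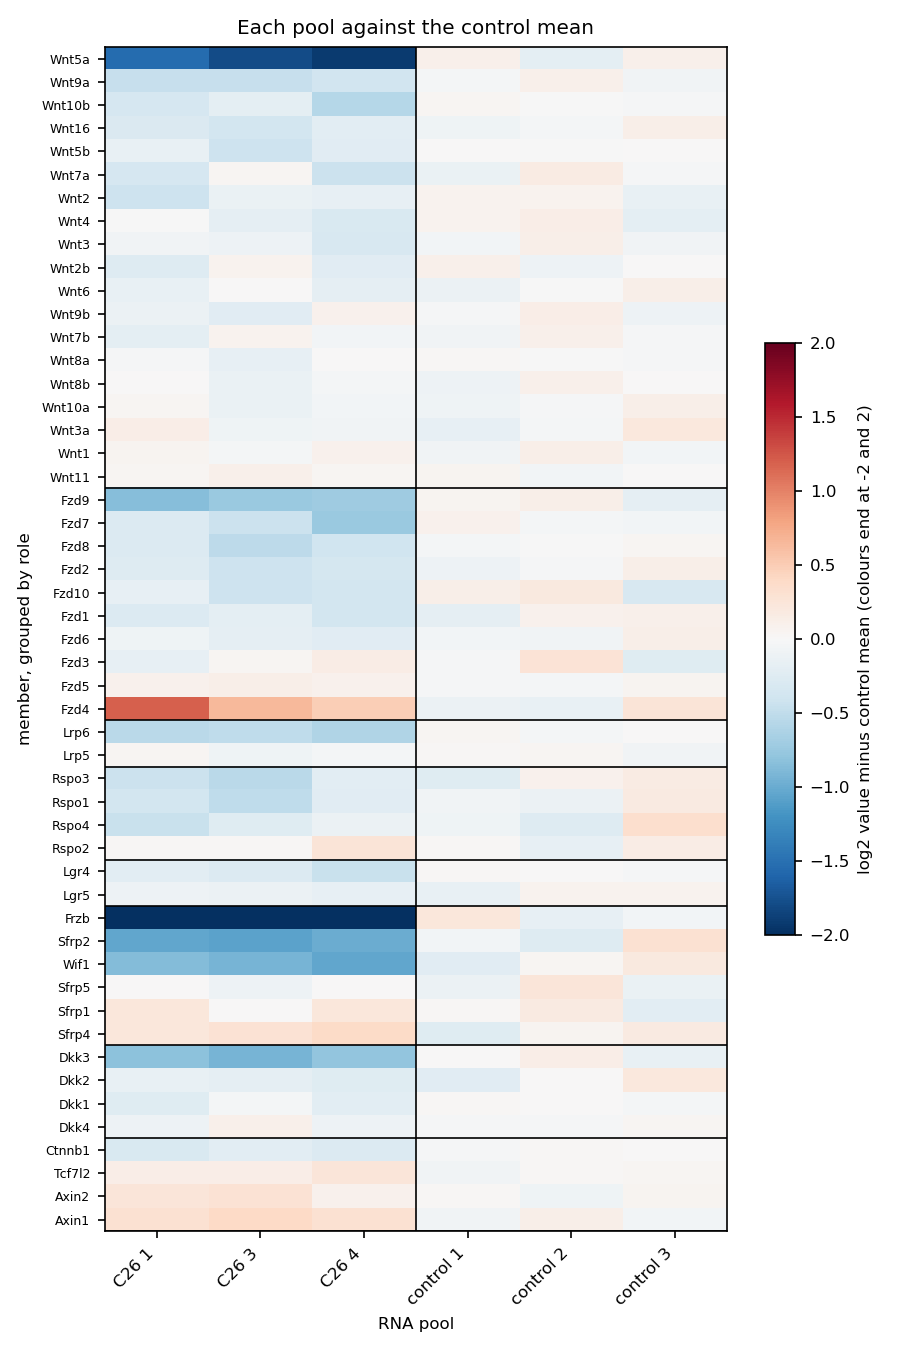
Log2 value of each pool minus the control mean (colour, blue lower and red higher, ending at −2 and 2) for the 51 Wnt genes, grouped by role, with C26 pools in the left columns and control pools in the right columns. Frzb, Wnt5a, Sfrp2, Wif1, Dkk3 and Fzd9 are blue in each C26 pool, and Fzd4 is red in each, most in replicate 1.

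Of 77 other genes of the pathway that the arrays measured, 7 rose and 5 fell, and 65 did not pass. Over all probe sets 5.94% rose and 4.95% fell. Above the background, where 72 of the 77 lay, 8.3% of probe sets rose and 6.86% fell, so the counts were near these shares. Among 18 genes of Wnt secretion and regulation outside the cell, 3 fell and 1 rose. Wls, which carries Wnt proteins to the cell surface, had values of 5.78, 5.69 and 5.66 in the C26 pools, against 6.59, 6.70 and 6.51 in the control pools, and the log2 fold change was −0.89 (SE 0.08, adjusted p = 0.0001). The glypican genes Gpc4 (−0.68) and Gpc3 (−0.61), which encode heparan sulfate proteoglycans of the cell surface, also fell, and Cthrc1, a secreted protein of remodeling tissue, rose (0.78, adjusted p = 0.00122). Among 20 genes of alternative receptors and planar polarity, Celsr2, a cadherin of planar polarity, fell (−0.93) and Musk rose. Musk is the receptor kinase of the neuromuscular junction and has a Frizzled-like domain. It had values of 9.22, 9.37 and 9.40 in the C26 pools, against 8.49, 8.25 and 8.04 in the control pools (log2 fold change 1.07, SE 0.12, adjusted p = 0.000249).

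Of 22 cytoplasmic transducers, 4 rose and 0 fell, and by the adjusted p alone 9 were higher and 6 lower. Gsk3b, the kinase that phosphorylates beta-catenin, had values of 9.33, 9.43 and 9.42 in the C26 pools, against 8.59, 8.49 and 8.58 in the control pools. The groups were far apart beside their own spread (log2 fold change 0.84, SE 0.07, adjusted p = 8.36e-05). Fbxw11, an F-box protein that recognizes phosphorylated beta-catenin, rose by 0.82 and Tnks, a tankyrase that marks Axin proteins for degradation, by 0.76. The other tankyrase gene, Tnks2, was lower by less than 1.5-fold (log2 fold change −0.55, adjusted p = 0.00124). Siah1a, a ubiquitin ligase also linked to beta-catenin turnover, rose by 0.86. The median over the 22 was 0.02. Of 17 nuclear factors, Tle1, a co-repressor of TCF factors, rose by 1.11 and Cby1, which binds beta-catenin, had a log2 fold change of −0.89. The related gene Tle2 was lower by less than 1.5-fold (−0.54, adjusted p = 0.00136), and Tle3, Tle4 and Tle6 did not pass.

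Of 24 measured genes that are commonly cited as targets of beta-catenin, 1 rose and 1 fell, with a median of −0.07. Myc, a growth regulator, had values of 7.39, 7.06 and 7.28 in the C26 pools, against 5.51, 5.54 and 5.90 in the control pools (log2 fold change 1.59, SE 0.13, adjusted p = 5.07e-05). Ccnd1, the cyclin D1 gene, had values of 4.63, 5.13 and 4.70 in the C26 pools, against 6.65, 6.10 and 6.31 in the control pools (log2 fold change −1.53, SE 0.17, adjusted p = 0.000241). Both genes answer to many other signals. Lef1, itself a target and a partner of beta-catenin, lay under the background, and Axin2, Dkk1 and Lgr5 stand among the 51 Wnt genes as well.

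Of the lists of cell type markers, those of tendon, adipocytes, macrophages and neutrophils had the largest median changes. The medians of the others lay between −0.16 and 0.03. Of 9 tendon markers, 6 fell, and the median log2 fold change of the list was −1.40. Its values, summed on the linear scale, ran from 1732 to 1756 in C26 pools and from 3144 to 3652 in control pools, and all 9 lay above the background in at least 1 group. Chad (−3.79), Kera (−2.80) and Tnmd (−2.73), which encode matrix and membrane proteins of tendon, fell most, and Cilp2, Fmod and Comp fell by 1.68, 1.40 and 1.09 on the log2 scale. Thbs4 was higher by the adjusted p alone (log2 fold change 0.43, adjusted p = 0.00415). Of 11 fibroblast markers, Col15a1, Dpp4 and Cd34 fell and Fbln1 rose, with a median of 0.03. By the adjusted p alone 3 of the 11 were higher, Pdgfra (0.50) and Pi16 (0.41) among them, and 4 were lower. The sum of the list ran from 5710 to 6071 in C26 pools and from 5841 to 6378 in control pools. Satellite cell markers had 0 of 7 past the thresholds, 1 of them higher by the adjusted p alone, and Calcr lay under the background. Of 4 adipocyte markers, Plin1, Lep and Adipoq fell, and their sum ran from 121 to 150 in C26 pools and from 188 to 233 in control pools. Of 7 endothelial markers only Kdr fell, with sums of 1144 to 1260 in C26 pools and 1288 to 1377 in control pools, and of 4 nerve and Schwann cell markers 0 passed, with 1 lower by the adjusted p alone. Of 10 muscle fiber markers only Mylpf fell, and Des was higher by the adjusted p alone (0.29). Their sums were 45198 to 48037 in C26 pools and 48538 to 49668 in control pools. Sums in C26 and control pools also stood apart for nerve (80.2 to 85.8 against 92.6 to 101) and carcinoma markers (114 to 122 against 131 to 143). For satellite cell markers they were higher in C26 pools (346 to 392 against 325 to 343). Of 6 macrophage markers Itgam, Cd163, Mrc1 and C1qa rose, with sums of 726 to 766 in C26 pools and 429 to 460 in control pools, and of 7 neutrophil markers Cxcr2, S100a8, Retnlg, Csf3r and S100a9 rose, with sums of 221 to 261 in C26 pools and 85.0 to 97.7 in control pools. Whether these lists have a part in the lower values of Frzb, Sfrp2, Wif1, Dkk3 and Wnt5a or in the higher value of Fzd4 was not tested.

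**Figure D4:**
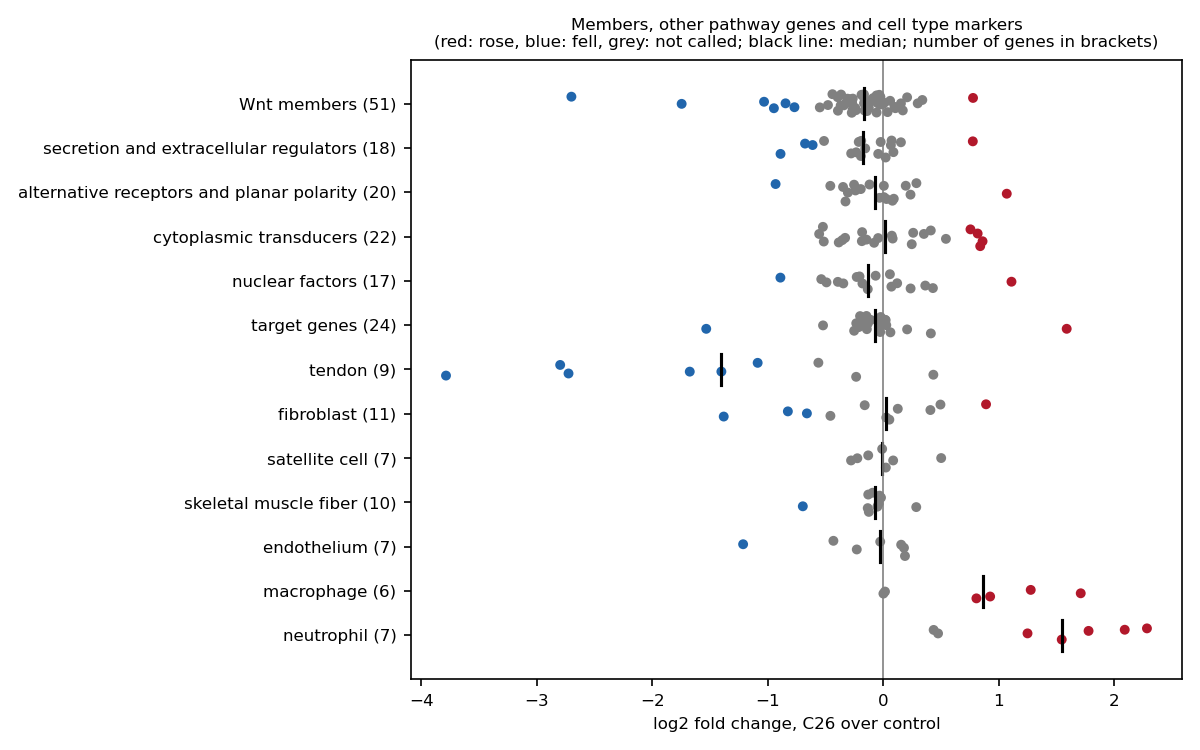
Log2 fold change of C26 over control muscle (horizontal axis) for the 51 Wnt genes, 5 lists of other pathway and target genes and 7 lists of cell type markers, 1 point per gene with the median as a black line. The tendon list has its median at −1.40, the macrophage list at 0.87 and the neutrophil list at 1.55, whereas the Wnt lists lie between −0.17 and 0.02.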

How the data were processed

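Gastrocnemius and plantaris RNA pools of C26 and control mice (3 pools each, RNA integrity number at least 8.0) were hybridized to Affymetrix Mouse Gene 1.0 ST arrays. The deposited log2 values are RMA values, by the submitters' processing notes. The authors computed them in GenePattern on the Brainarray custom CDF, version 13, which gives 1 probe set per gene. RMA corrects background, normalizes by quantiles and summarizes probes, so a dim gene is compressed toward the background. The sources used here name no genome build for the arrays. The number of arrays limits the precision.

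The 2 groups were set against each other by a two-sided moderated test (limma 3.58.1, R 4.3.3) with Benjamini-Hochberg adjustment over 21212 probe sets. Symbols came from the platform annotation, and all 51 were found in a RefSeq table. The Wnt genes and gene lists were chosen with earlier results of these data known. Genes that changed, and those above background with an absolute log2 fold change of at least 0.4, were given in every pool. Of other pathway genes those that passed were named, and Ndp, Lef1, Tnks2 and the Tle genes other than Tle1 were chosen after their values were seen. Alternatives were other tests, fold limits, scalings, a filter on dim probe sets, a replicate block and leaving out each pool. The t-test of the study's methods was approximated with equal variances and Benjamini-Hochberg adjustment. The study gives q-values and does not say how variances were treated. Scripts were tested on simulated data. Tables were handled in Python 3.11.15.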

Additional observations from a re-analysis of the deposited data

How the results depend on the processing

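The counts of Wnt genes that fell (6) and rose (1) were compared over tests, scalings, filters and pools. Lower genes numbered 4 by a test with unequal variances and 7 with quantile normalization or cyclic loess. Higher genes numbered 0 by the methods' t-test and by a test with unequal variances, where Fzd4 did not pass. Among all 21212 probe sets, 1049 were lower and 1261 higher at first, and 621 lower and 760 higher with unequal variances. There the methods' t-test gave 936 lower and 1131 higher, quantile normalization 1085 lower and cyclic loess 1027 lower. Leaving out each pool in turn gave 6 lower Wnt genes each time and 0 to 1 higher, with 0 only without C26 replicate 1. Without a minimum change the Wnt genes numbered 18 lower and 2 higher, and at a minimum of 2-fold 3 lower and 0 higher. For the other pathway genes (7 higher, 5 lower) these counts were 15 higher and 20 lower without a minimum and 2 higher and 0 lower at 2-fold. A test with unequal variances gave 2 lower, and leaving out each pool gave 7 higher each time and 4 to 5 lower. For the target genes (1 higher, 1 lower) no minimum gave 2 higher and 3 lower, and leaving out each pool gave 1 higher and 1 to 2 lower, with 2 lower only without C26 replicate 4. The cause of these differences was not tested beyond the change of limit itself.

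The median log2 fold change of the Wnt genes (−0.17) was −0.10 with arrays centred on their medians, −0.13 with quantile normalization, −0.13 with cyclic loess and −0.19 to −0.14 without 1 pool. The median over all probe sets moved too, from −0.05 as deposited to 0.02, −0.01 and −0.0005 with these scalings, in the same order. Median centring moved the calls over all probe sets to 1534 higher and 839 lower, against 1261 higher and 1049 lower as deposited, with 1 Wnt gene higher and 6 lower as before. The numbers 1 and 3 occur in the titles of both groups. Deviations of same-numbered pools from their group means correlated at −0.06 for both, where all pairings ran from −0.06 to 0.07. With so few pairs this cannot tell whether same-numbered pools share more than a number. With the number as a replicate block, 6 Wnt genes were lower and 1 higher, 2 target genes were lower and the Wnt median was −0.13. Only the pools numbered 1 and 3 enter that estimate, since each other number occurs in a single group, so its p-values rest on little data. Each of 10 genes (the 7 that changed, Lrp6, Fzd7 and Wnt9a) was run under 14 other tests, scalings, filters and sets of pools, and Frzb, Wnt5a, Dkk3 and Fzd9 passed under all 14. With the replicate block the adjusted p of Wnt9a was 0.0546. Of the 51 Wnt genes, 45 lay above background, and 45 without any 1 pool, but 31 lay above the 99th percentile of the olfactory and vomeronasal probe sets, and 41 lay above the background in all 6 pools.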
